A study of Mus musculus with 4 samples.

Results

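Accessible DNA was examined at 8 genes of CD8+ T cell effector function and activation: the granule gene Srgn, the chemokine genes Ccl3, Ccl4 and Ccl5, the cytokine genes Tnf and Lta, and the surface receptor genes Cd44 and Tfrc. They are 8 of 21631 protein-coding genes, and were chosen with an earlier reading of their region counts in the same peak lists in view, so every difference given here is a description and none is tested. A locus was the gene body with 20 kb on either side on the mouse genome build mm10. The 8 loci held 18 of the 15237 distinct accessible regions found in the series, a region being formed by all peaks that overlapped by at least 1 bp. Ccl3 and Ccl4 shared 2 of these regions, and Tnf and Lta shared 1, so the 8 genes stand for 6 separate loci. Each of the 8 had a region in at least 1 list, as did 58.1% of all protein-coding genes.

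The measurements are ATAC-seq peaks, where the transposase Tn5 inserts sequencing adapters into open chromatin. The cells were CD8+ lymphocytes of Balb/c mice, described in the series title as tumour-infiltrating. Each of 4 conditions had 1 library and no replicate: unstimulated and untreated, unstimulated and phenelzine-treated, stimulated and untreated, and stimulated and phenelzine-treated. Stimulated cells received the phorbol ester PMA together with ionomycin for 2 h, a pair that bypasses the T cell receptor by activating protein kinase C and raising calcium. Phenelzine blocks monoamine oxidases and the histone demethylase LSD1. For phenelzine the dose and route, and for the cells the tumour and the number of mice, are not given in the labels.

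CD8+ T cells kill target cells by releasing granules, and Srgn encodes serglycin, the proteoglycan that packs granzymes and perforin inside them. Activated CD8+ T cells also secrete the chemokines CCL3, CCL4 and CCL5, which draw in other leukocytes, and the cytokines TNF and lymphotoxin alpha, whose genes lie side by side in the MHC. They display more of the hyaluronan receptor CD44, a marker of antigen-experienced T cells, and of the transferrin receptor (Tfrc), which imports iron for growth. PMA and ionomycin act on many of these genes through the AP-1, NFAT and NF-kB factors.

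Peaks fell on annotated promoters of Tfrc, Ccl3 and Srgn, and these 3 sequences are shown because the peaks there ranged from present in all 4 lists to present in 1. Each line gives the 250 bases before an annotated start in the direction of the gene, from RefSeq on GRCm38.p6, whose chromosomes mm10 shares. Capitals mark bases covered by a peak in at least 1 list. The Tfrc stretch is chr16:32608646-32608895 on the plus strand, the Ccl3 stretch chr11:83649379-83649628 on the minus strand, and the Srgn stretch chr10:62507758-62508007 on the minus strand, before the inner of the 2 Srgn starts.
Tfrc: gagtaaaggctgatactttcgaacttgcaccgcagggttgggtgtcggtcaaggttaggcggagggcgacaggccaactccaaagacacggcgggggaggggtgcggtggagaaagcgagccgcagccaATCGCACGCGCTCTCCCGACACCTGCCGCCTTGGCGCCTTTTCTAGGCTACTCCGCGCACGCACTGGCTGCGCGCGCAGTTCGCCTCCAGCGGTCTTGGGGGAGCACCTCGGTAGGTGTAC
Ccl3: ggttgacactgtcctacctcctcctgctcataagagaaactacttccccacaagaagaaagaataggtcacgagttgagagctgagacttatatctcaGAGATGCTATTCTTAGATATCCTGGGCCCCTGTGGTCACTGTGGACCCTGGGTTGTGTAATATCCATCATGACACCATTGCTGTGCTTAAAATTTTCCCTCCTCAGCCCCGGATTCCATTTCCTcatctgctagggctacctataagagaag
Srgn: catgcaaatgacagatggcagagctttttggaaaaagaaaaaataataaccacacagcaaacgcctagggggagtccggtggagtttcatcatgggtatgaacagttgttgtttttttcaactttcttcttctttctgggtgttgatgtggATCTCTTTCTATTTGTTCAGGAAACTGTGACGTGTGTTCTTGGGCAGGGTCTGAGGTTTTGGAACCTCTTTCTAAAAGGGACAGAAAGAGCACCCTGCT

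The capitals in the Tfrc stretch came from overlapping peaks of all 4 lists. Those in the Ccl3 and Srgn stretches came from the stimulated untreated list alone. At Ccl3 the covered bases ran from 152 to 29 bases before the start, and at Srgn from 99 bases before the inner start across it into the gene. The stretches also differed in composition. Tfrc held 25 CG dinucleotides and 64.8% G or C, against medians of 10 and 55.6% over the 21045 promoter windows of protein-coding genes. Ccl3 held 2 CG dinucleotides at 46.8% G or C, and Srgn held 3 at 42.8%. Member promoters without a peak in any list held 5 (outer Srgn start), 5 (Cd44), 9 (Lta) and 10 (Tnf) CG dinucleotides, between those of the Ccl3 and Srgn stretches and that of Tfrc. Of the 8 annotated promoter windows of the members (250 bases before to 50 after a start), 4 had a peak in stimulated untreated cells, where 26.4% of all windows had. In each of the other lists the 2 overlapping windows of Tfrc did, where the share of all windows was 20.5% in unstimulated untreated, 23.0% in unstimulated phenelzine and 24.8% in stimulated phenelzine cells.

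Factor motifs were searched on both strands in the 250 bases before each of the 8 annotated starts found for 6 members (Srgn and Tfrc have 2 each, and Cd44, Ccl3, Tnf and Lta 1 each). The NFAT core GGAAA, which shares the letters GGAA with the Ets motif CGGAAG, occurred at 2 places under the Ccl3 peak on the reverse strand, from 59 to 55 and from 34 to 30 bases before the start. It is a short motif that 54.9% of promoter windows hold, and it also occurred 3 times before Tnf and 2 times each before Cd44 and Lta, where no list had a peak. The Runx motif TGTGGT lay under the same peak from 122 to 117 bases before the start, and 12.2% of windows hold it. Under the Srgn peak lay a GGAAA from 80 to 76 bases before the inner start and the cAMP response element core TGACGT from 72 to 67, which 7.44% of windows hold. The Tfrc stretch had a CCAAT box (35.6% of windows) from 124 to 120 bases before its outer start, at the edge of the covered bases. Before the inner Tfrc start, TGACGT lay from 213 to 208 and CGGAAG (17.3% of windows) from 223 to 218 bases upstream, both under the peak. The TATA box TATAAA (11.7% of windows) occurred from 29 to 24 bases before the start of Tnf, and also before Lta and the outer Srgn start, none of which had a peak. Neither the AP-1 motif TGANTCA (6.17% of windows) nor the NF-kB motif (7.99%) occurred in any of the 8 windows, which says only that these letters are not there. A match is a description and not a shown binding site.

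The deposited lists differed in length, with 6525 peaks in unstimulated untreated, 7938 in unstimulated phenelzine, 10414 in stimulated untreated cells and 9331 in stimulated phenelzine cells. The lists carry no read totals, so depth is unknown. The background pileup implied by the peak statistics was 0.392, 0.471, 0.493 and 0.489 in that order, lowest in the unstimulated untreated library. The number of peaks and this pileup moved with the region counts below, and their part in them was not tested. Of 10 genes listed as CD8 T cell markers, 6 had a region in their locus: Cd3d, Cd3e, Cd3g, Cd247, Lck and Cd5. Cd8a and Cd8b1, which define the lineage, had none in any list. The counts of this list therefore hold nothing from the lineage-defining genes and do not report on CD8 identity. Distinct regions of the listed CD8 T cell marker loci numbered 3, 3, 5 and 3 over the lists in the order above. Those of 7 myeloid marker loci numbered 6, 10, 13 and 9, with none at Csf1r and Itgam. The most of these lay at Cd14, with 3, 5, 6 and 3, and neighbouring genes were not checked at the marker loci. Those of 3 CD4 and regulatory T cell marker loci numbered 2, 3, 4 and 3. For the B cell markers the numbers were 4, 3, 4 and 2, with none at Ms4a1 and Pax5. NK cell (0, 0, 1 and 1), epithelial (0, 0, 1 and 2) and stromal or endothelial markers (0, 1, 1 and 1) had few, with none at Ncr1, Epcam and Col1a1. The CD8 T cell, myeloid and CD4 marker counts, like those of the members below, were highest in stimulated untreated cells. That list also held the largest share of all regions, at 68.1%. The part of other cells in the results was not tested. In bulk chromatin, fewer cells of a type and less open DNA per cell cannot be told apart.

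Of the 18 regions in the 8 loci, 4 were held in unstimulated untreated cells and 8 in unstimulated phenelzine cells. Stimulated untreated cells held 12 and stimulated phenelzine cells 8. As shares these are 22.2% (exact 95% interval 6.41 to 47.6), 44.4% (21.5 to 69.2), 66.7% (41.0 to 86.7) and 44.4% (21.5 to 69.2). The intervals cover counting error only and treat the 18 regions as independent. The genes were chosen with such counts in view, so the intervals give no test against the shares of all regions. Of all 15237 regions the same lists held 42.6%, 51.8%, 68.1% and 60.9%. The members' share was lowest in the unstimulated untreated and highest in the stimulated untreated list, as was the share of all regions.

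**Figure D1:**
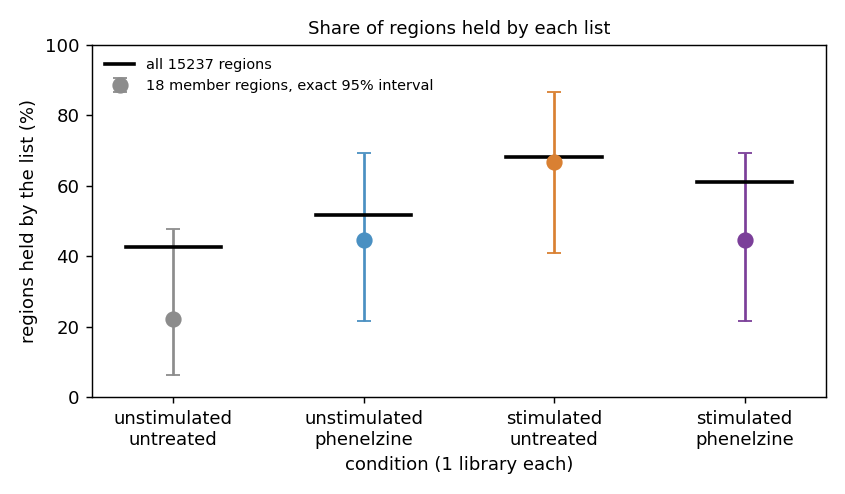
Share of accessible regions held by each of the 4 peak lists, in percent: points are the 18 regions of the 8 member loci with exact 95% intervals (counting error only), black bars all 15237 regions. The points run from 22.2% in unstimulated untreated to 66.7% in stimulated untreated cells, and the bars from 42.6% to 68.1% over the same lists. The genes were chosen with such counts in view, so the intervals give no test of points against bars.

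Most regions of these loci were held by 1 or 2 lists, as were most of all regions. A single list held 11 of the 18, where 43.6% of all regions are of this kind, and all 4 lists held 2 (26.8% of all regions). The stimulated untreated list alone held 7 (17.6% of all regions), found at Srgn, Ccl3, Ccl5, Cd44 and Tfrc. Both phenelzine lists and no other held 2, at Ccl5 and Cd44 (2.45% of all regions). The pattern of both stimulated lists and no other was that of 0 member regions and of 5.88% of all regions. That share is too small for a 0 among 18 regions to be read.

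The peaks themselves were of modest strength. Each peak carries the authors' fold enrichment over local background and a −log10 q, both computed within its own list, so they rank peaks within a list and do not measure change between lists. The 32 member peaks had fold enrichments from 3.63 to 7.45 with a median of 4.57, and −log10 q from 1.11 to 7.60 with a median of 2.35. The lists themselves end at a −log10 q between 1.00 and 1.02. Of the member peaks, 2 of 4 in unstimulated untreated (50%), 4 of 8 in unstimulated phenelzine (50%), 4 of 12 in stimulated untreated (33.3%) and 2 of 8 in stimulated phenelzine cells (25%) had a −log10 q under 2. The share of all peaks under 2 was 20.6% in unstimulated untreated, 30.4% in unstimulated phenelzine, 25.6% in stimulated untreated cells and 29.2% in stimulated phenelzine cells. A region missing from a list may therefore have lain just under that list's limit.

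**Figure D2:**
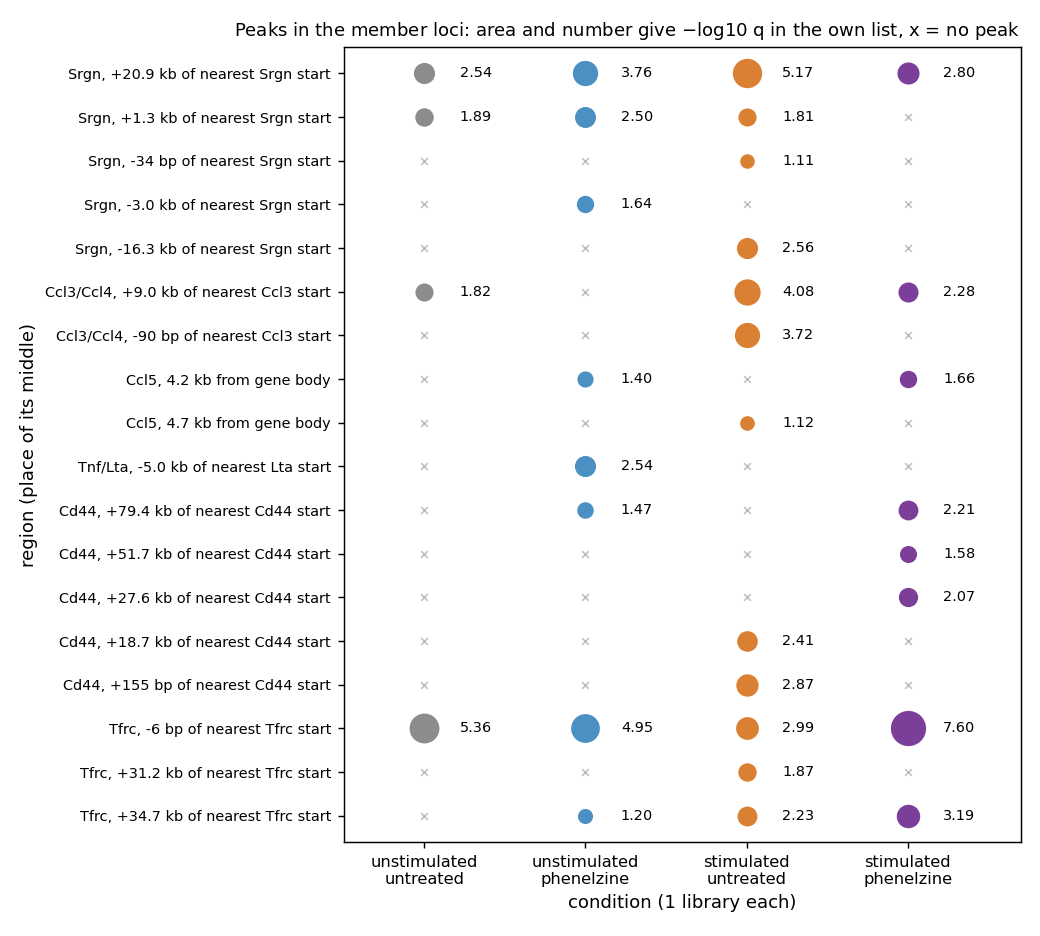
The 18 regions of the member loci (rows, with the distance of the region's middle from the nearest annotated start, or from the gene body for Ccl5) in the 4 lists (columns). Circle area and the number beside it give −log10 q within that list, and a cross means no peak. The start of Tfrc is filled in every column with 5.36, 4.95, 2.99 and 7.60, while the start of Ccl3 is filled only in stimulated untreated cells with 3.72.

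Srgn, on chromosome 10 from 62493833 to 62527445, had 5 regions in its locus, with 2 in unstimulated untreated, 3 in unstimulated phenelzine, 4 in stimulated untreated cells and 1 in stimulated phenelzine cells. The counts were thus highest after stimulation without drug and lowest after stimulation with it. The single region held by every list, from 62486678 to 62487072, had −log10 q of 2.54, 3.76, 5.17 and 2.80 in the order unstimulated untreated, unstimulated phenelzine, stimulated untreated and stimulated phenelzine. It lay 6761 bp beyond the 3′ end of Srgn, on the promoter window and body of the neighbouring gene Vps26a, which encodes a retromer subunit. It cannot be assigned to Srgn by position.

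The region inside the Srgn body from 62506321 to 62506573, centred 1.3 kb past the inner start, was held by 3 lists. Its −log10 q was 1.89 in unstimulated untreated, 2.50 in unstimulated phenelzine and 1.81 in stimulated untreated cells, and the stimulated phenelzine list had no peak there. The region across the inner start, from 62507727 to 62507856, was held by stimulated untreated cells alone with fold enrichment 3.63 and −log10 q 1.11. That peak was among the weakest of its list, above only 0.509% of the peaks by −log10 q, and it also overlapped the promoter window of the predicted gene Gm51804. A region centred 16.3 kb before the outer start was held by stimulated untreated cells alone with −log10 q 2.56. It lay 14.6 kb from the gene Kifbp and 16.1 kb from the Srgn body, so it is closer to Kifbp. Another region, 3.0 kb before the outer start, was held by unstimulated phenelzine cells alone with −log10 q 1.64. The outer start of Srgn had no peak in any list. Without the Vps26a region the Srgn counts were 1, 2, 3 and 0, so the stimulated phenelzine list then had no region at Srgn.

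Ccl3 lies on chromosome 11 from 83647843 to 83649378, and the gene table gives Ccl4 a model from 83648624 to 83664683 that overlaps it. The table lists a predicted transcript of Ccl4 beside a curated one without saying which sets this extent, so the model may be too long. Which regions count for Ccl4 here, and its membership in the counts below, rest on it. Their 2 shared regions were held as 1 in unstimulated untreated, 0 in unstimulated phenelzine, 2 in stimulated untreated cells and 1 in stimulated phenelzine cells. A region held by stimulated untreated cells alone lay at the start of Ccl3, from 83649407 to 83649530, 29 bp outside the gene's end and inside the Ccl4 model. It had fold enrichment 5.35 and −log10 q 3.72, above 63.3% of the peaks in the stimulated untreated list. It was the strongest of the 7 member regions that only this list held.

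The other Ccl3 and Ccl4 region, from 83640291 to 83640484, lay 7359 bp from the Ccl3 body on its 3′ side. Its −log10 q was 1.82 in unstimulated untreated, 4.08 in stimulated untreated cells and 2.28 in stimulated phenelzine cells, with no peak in unstimulated phenelzine cells. By rank within each list it stood above 12.7%, 68.6% and 38.7% of the peaks. A Ccl3 start peak was therefore absent from both phenelzine lists and also from unstimulated untreated cells. Unstimulated phenelzine cells had no Ccl3 or Ccl4 peak. With −log10 q of at least 2, unstimulated untreated cells had none either.

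Ccl5, on the same chromosome from 83525778 to 83530518, had 1 region in each list except unstimulated untreated, which had 0. The same count hid different places. Both phenelzine lists had a peak between 83534739 and 83534936, 4221 bp from the gene body, with −log10 q 1.40 in unstimulated and 1.66 in stimulated cells. The stimulated untreated list had its peak from 83535245 to 83535316, 4727 bp from the body, with −log10 q 1.12. All 3 were weak, above 6.14%, 17.1% and 0.625% of the peaks of their own lists, and no peak lay in the Ccl5 body.

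Tnf and Lta are neighbours on chromosome 17, Tnf from 35199367 to 35202007 and Lta from 35203165 to 35205578. Only the unstimulated phenelzine list had a region in either locus, from 35210327 to 35210428 with fold enrichment 4.79 and −log10 q 2.54. It lay 5.0 kb before the annotated Lta start and 8320 bp from the Tnf body. No list had a peak in the bodies or at the annotated starts of Tnf and Lta, including both stimulated lists. The locus of Ltb, the next TNF family gene, held this same region.

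Cd44, on chromosome 2 from 102811141 to 102901669, is the longest member with a body of 90.5 kb, and all 5 of its regions lay inside it. Counts were 0 in unstimulated untreated, 1 in unstimulated phenelzine, 2 in stimulated untreated cells and 3 in stimulated phenelzine cells. The stimulated lists had no Cd44 region in common. Stimulated untreated cells had a peak from 102901456 to 102901564, centred 155 bp past the start, with fold enrichment 4.85 and −log10 q 2.87. Their other peak was centred 18.7 kb past the start, with −log10 q 2.41.

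Stimulated phenelzine cells had Cd44 peaks deeper in the gene, centred 27.6, 51.7 and 79.4 kb past the start, with −log10 q 2.07, 1.58 and 2.21. The last of these, from 102822171 to 102822287, was also held by unstimulated phenelzine cells with −log10 q 1.47. The single peak close to the Cd44 start was thus that of stimulated untreated cells, and every peak of the 2 phenelzine lists lay further into the gene than both peaks of stimulated untreated cells. The gene table used here gives no exons, so exonic and intronic places were not separated.

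**Figure D3:**
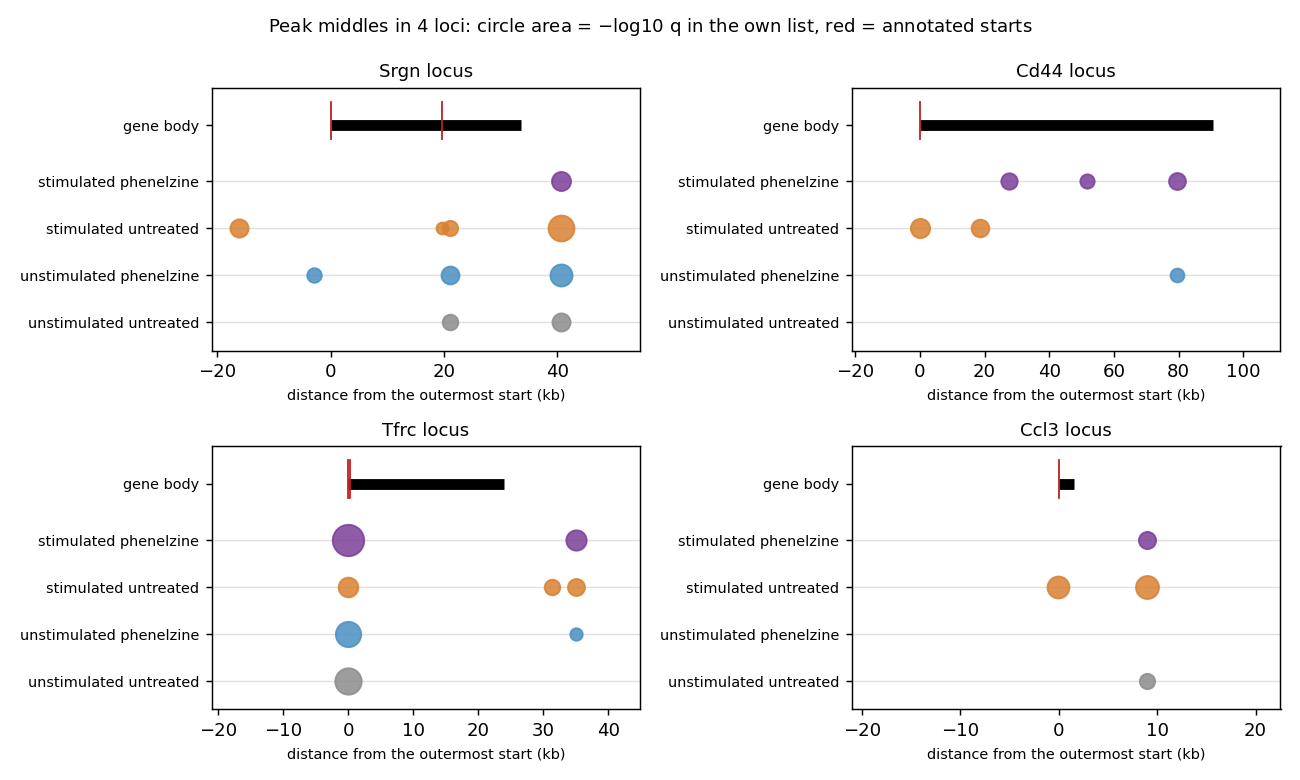
Peak middles in the Srgn, Cd44, Tfrc and Ccl3 loci by distance from the outermost annotated start in kb, positive in the direction of the gene. Rows are the 4 lists, circle area is −log10 q in the own list, the black bar is the gene body and red lines are annotated starts. At Cd44 the orange circles of stimulated untreated cells sit at 155 bp and 18.7 kb and the purple ones of stimulated phenelzine cells at 27.6, 51.7 and 79.4 kb.

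Tfrc, on chromosome 16 from 32608896 to 32632794, had the highest-ranked member peak in 3 of the 4 lists, all but stimulated untreated. The region across its outer start, from 32608775 to 32609004, was held by all 4 lists with fold enrichments of 6.45 in unstimulated untreated, 6.13 in unstimulated phenelzine, 4.91 in stimulated untreated cells and 7.45 in stimulated phenelzine cells. The −log10 q values were 5.36, 4.95, 2.99 and 7.60 in the same order. Within their own lists these peaks stood above 86.6%, 84.5%, 51.3% and 95.7% of the peaks. The start of Tfrc was therefore called in every condition, at its lowest rank in the list with the most peaks.

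On the 3′ side of Tfrc lay a region 7409 bp from the body, from 32640203 to 32640386, held by stimulated untreated cells alone with −log10 q 1.87. A region further out, from 32643795 to 32643904, had −log10 q 1.20 in unstimulated phenelzine, 2.23 in stimulated untreated cells and 3.19 in stimulated phenelzine cells. It lay 11001 bp from Tfrc and 195 bp from an end of the kinase gene Tnk2. The region at 7409 bp lay 3713 bp from Tnk2, so both are closer to that gene than to Tfrc. The locus counts were 1 in unstimulated untreated, 2 in unstimulated phenelzine, 3 in stimulated untreated cells and 2 in stimulated phenelzine cells. With the gene body alone all 4 counts were 1.

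**Figure D4:**
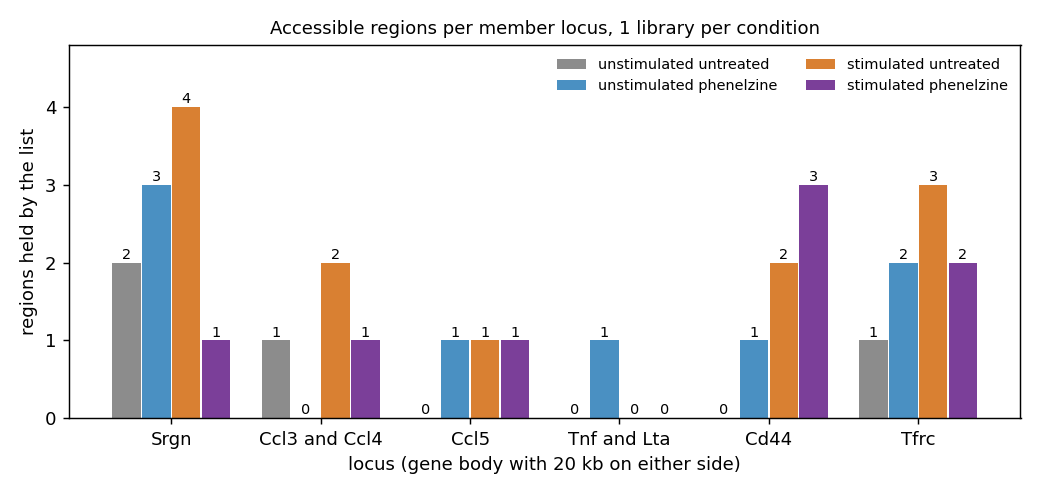
Number of accessible regions held by each list in the 6 separate member loci, 1 library per condition. Srgn runs 2, 3, 4 and 1, Cd44 0, 1, 2 and 3, and Tfrc 1, 2, 3 and 2 in the order of the legend.

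The first comparison the design allows is stimulation without drug. Srgn, Cd44, Tfrc, Ccl3, Ccl4 and Ccl5 had more regions in stimulated than in unstimulated untreated cells, Tnf and Lta had 0 in both, and no member had fewer. These are 6 of 8 members, where 23.6% of all protein-coding genes had more regions and 4.53% fewer. Since the members were chosen on such counts, nothing is read from this. By distinct region, 8 belonged to the stimulated list alone, 0 to the unstimulated list alone and 4 to both. Of all regions in either list, 43.9% were in the stimulated list only and 10.3% in the unstimulated list only.

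With phenelzine, stimulation left the number of member regions at 8 in each list. Cd44, Ccl3 and Ccl4 had more regions in stimulated cells (16.0% of all genes), and Srgn, Tnf and Lta had fewer (9.56% of all genes). Of 11 distinct regions, 3 belonged to the stimulated list alone (31.9% of all regions in either list), 3 to the unstimulated list alone (19.9%) and 5 to both. The net difference was thus 0 with the drug and 8 without it, but with lists of equal size it was 2 with the drug and 3 without. The difference between these differences was not tested, as each rests on 1 library a side.

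Phenelzine in unstimulated cells went with 8 member regions against 4. Srgn, Cd44, Tfrc, Ccl5, Tnf and Lta had more regions with the drug (15.7% of all genes), and Ccl3 and Ccl4 had fewer (8.54%). The treated list alone held 5 regions (32.6% of all in either list), the untreated list alone 1 (18.1%) and both 3. In stimulated cells the order was the other way, with 8 regions with the drug and 12 without. There Cd44 had more regions with phenelzine (10.4% of all genes), while Srgn, Tfrc, Ccl3 and Ccl4 had fewer (16.2%). The treated list alone held 4 regions (21.2% of all in either list), the untreated list alone 8 (29.5%) and both 4. These comparisons share libraries with those of stimulation, so the 4 are not independent of each other.

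No region outside the 20 kb bound of a locus lay closer than 30.2 kb to a member body. The outermost region inside was 16.1 kb from the body at Srgn, 11.0 kb at Tfrc and 8.3 kb or less at the other members. The nearest region outside was 30.2 kb away at Lta, 33.8 kb at Tnf, 42.3 kb at Cd44 and further at the other members.

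The wider granule and cytotoxic list of 16 genes included 10 with a region in their locus. Beside Srgn these were Gzmm (2 regions in each list), Lamp1 (1, 1, 1 and 0 in unstimulated untreated, unstimulated phenelzine, stimulated untreated and stimulated phenelzine cells), Lamp2 (0, 2, 3 and 1), Nkg7 (1, 2, 1 and 2) and Ctsw (1, 1, 2 and 1). The others were Rab27a (2, 0, 2 and 2), which tethers granules, the priming factor gene Unc13d (1 in each), the fusion gene Stx11 (1, 1, 2 and 1) and the death ligand gene Fasl (0, 0, 1 and 0). Granzyme genes Gzma, Gzmb, Gzmc and Gzmk and the perforin gene Prf1 had none. Leaving out Srgn, 4 of 15 genes had more regions after stimulation without drug and 0 fewer, where 23.6% of all genes had more and 4.53% fewer. With phenelzine 1 had more and 2 fewer (16.0% and 9.56% of all genes). In stimulated cells 1 of the 15 had more with phenelzine and 5 had fewer (10.4% and 16.2% of all genes). In unstimulated cells 2 had more with phenelzine and 1 had fewer (15.7% and 8.54% of all genes). The median difference was 0 for this list and 0 for all genes in each comparison.

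Among 16 chemokine, TNF family and other cytokine genes, 9 had a region in their locus. Those that are no members were Ccl1 (0, 1, 0 and 0 in the same order), Ccl6 (0, 1, 1 and 0), Cxcl10 (1, 1, 1 and 2) and Ltb, which shares the region of Tnf and Lta. Ifng, Il2, Csf2, Xcl1 and Tnfsf14 were among those without any. Of the 11 that are no members, 1 had more regions after stimulation without drug and 0 fewer (23.6% and 4.53% of all genes). With phenelzine 1 had more and 3 fewer (16.0% and 9.56% of all genes). Phenelzine in unstimulated cells went with more at 3 and fewer at 0 (15.7% and 8.54% of all genes). Ltb, through the region of Tnf and Lta, is in both of these counts of 3. In stimulated cells phenelzine went with more at 1 and fewer at 1 (10.4% and 16.2% of all genes).

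Of 14 activation receptor and nutrient uptake genes, 7 had a region. Beside Cd44 and Tfrc these were the costimulatory receptor gene Tnfrsf9 (2, 2, 2 and 3), the amino acid transporter genes Slc3a2 (3, 4, 4 and 3), Slc7a5 (1, 0, 0 and 0) and Slc1a5 (0, 1, 1 and 1), and the glucose transporter gene Slc2a1 (1, 1, 3 and 2). Cd69, Il2ra, Icos and Cd28 had none. Leaving out Cd44 and Tfrc, 3 of 12 had more regions after stimulation without drug and 1 fewer (23.6% and 4.53% of all genes). With phenelzine 2 had more and 1 fewer (16.0% and 9.56% of all genes). Phenelzine in unstimulated cells went with more at 2 and fewer at 1 (15.7% and 8.54% of all genes). In stimulated cells it went with more at 1 and fewer at 2 (10.4% and 16.2%). The median difference was again 0 in each comparison for both this and the chemokine list.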

How the data were processed

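ATAC-seq peak lists of 4 libraries, 1 per condition, were used. The build mm10 and the tools MACS2, HOMER, Picard, Bowtie2 2.2.5 and Trimmomatic 0.33 are named per the submitters' processing notes. Parameters and filters: not given in the sources used here. The authors deposited 1 broad peak list per library. The deposited fold enrichment is a ratio of pileup over local background, and p-values and q-values were deposited as −log10. The deposited score equalled 10 times −log10 q, rounded down, in 99.98% to 100% of peaks, and was not used further.

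Peaks on chromosomes 1 to 19 and X were merged into regions where they overlapped by at least 1 bp (Python 3.11.15, SciPy 1.17.1), and counted in loci of protein-coding genes of the RefSeq table for GRCm38.p6. Coordinates count from 1. On simulated data the merge returned 500 of 500 planted patterns. With 1 library per condition no test was made. The implied background pileup came from the modal fold and −log10 p of a list, with 1 added to pileup and background before their ratio and a Poisson upper tail for p. The members and lists were chosen with earlier results of these data known. Named were all 8 members and genes at or nearest to a member region. Also named were the other reported genes with a region in the granule, chemokine, activation and receptor lists. Some listed genes without a region and some marker genes were named as well. Alternatives changed the flank, the −log10 q limit, the list size, the gap between peaks and the overlap. A listed receptor gene is not reported here.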

Additional observations from a re-analysis of the deposited data

Results flagged for a closer look

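The difference of phenelzine had opposite signs in the unstimulated and stimulated arms for the member loci as a whole, with 4 more regions in unstimulated cells and a net difference of -4 in stimulated cells. Srgn did the same with a difference of 1 region in unstimulated and -3 in stimulated cells, and Tfrc with 1 and -1. Stimulation also differed in sign at Srgn, with 2 more regions in untreated cells and a difference of -2 in phenelzine-treated cells. At Srgn the difference of phenelzine in unstimulated cells was 0 with the gene body alone, with lists of equal size and with peaks covering at least 50% of a region, and that of stimulation in untreated cells was 0 with lists of equal size. At Tfrc the difference of phenelzine in unstimulated cells was 0 under 5 of 8 alternatives, and in stimulated cells phenelzine went with more Tfrc regions with lists of equal size (2 against 1) and with −log10 q of at least 3 (2 against 0). None of these differences was tested, because each rests on 1 library a side.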

How the results depend on the processing

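Distinct member regions numbered 4, 8, 12 and 8 in unstimulated untreated, unstimulated phenelzine, stimulated untreated and stimulated phenelzine cells. The net differences were 8 for stimulation in untreated cells, 0 for stimulation with phenelzine, 4 for phenelzine in unstimulated cells and -4 for phenelzine in stimulated cells. With gene bodies alone the counts were 2, 3, 6 and 4 and the net differences 4, 1, 1 and -2, in the same orders. With flanks of 50 kb the counts were 9, 14, 18 and 14 and the differences 9, 0, 5 and -4. With −log10 q of at least 2 they were 2, 4, 8 and 6, with differences 6, 2, 2 and -2, and with at least 3 they were 1, 2, 3 and 2, with differences 2, 0, 1 and -1. With each list limited to its strongest 6519 peaks they were 4, 4, 7 and 6, with differences 3, 2, 0 and -1, so the difference for phenelzine in unstimulated cells was gone and the 2 for stimulation were close to each other. Joining peaks up to 100 bp apart changed no count, and asking that peaks cover at least 50% of a region gave 4, 7, 11 and 7. Leaving out regions within 1 kb of an end of another gene, chosen after seeing the data, gave 3, 6, 10 and 6. No difference of these summed counts took the opposite sign, and the stimulated untreated list held the most member regions under all 8 alternatives. Single members did turn: Tfrc had 1, 1, 1 and 2 regions with lists of equal size and 1, 1, 0 and 2 with −log10 q of at least 3, against 1, 2, 3 and 2. Cd44 had 0, 0, 2 and 2 with −log10 q of at least 2 and with lists of equal size, against 0, 1, 2 and 3. With −log10 q of at least 3 it had 0 in every list. Tnf and Lta each had 3, 4, 3 and 3 with flanks of 50 kb, against 0, 1, 0 and 0. The lists hold no reads, so depth could not be equalised. No paired analysis was possible because each condition has 1 library.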

Other observations

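A list of chemokine and TNF receptor genes, with 7 genes reported here, had regions at 3. Tnfrsf1b, which encodes the second TNF receptor, had 8 regions in its locus, with 3 in unstimulated untreated, 3 in unstimulated phenelzine, 6 in stimulated untreated cells and 3 in stimulated phenelzine cells. Ccr1 and Ccr7 each had 1 region in unstimulated phenelzine cells alone. Ccr3, Cxcr3, Tnfrsf1a and Ltbr had none.

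Likeness of counts was measured by the sum of absolute differences over the 4 lists. No other protein-coding gene had exactly the Srgn counts of 2, 3, 4 and 1, but the smallest sum was 1. The Srgn counts include the region at Vps26a. The Cd44 counts of 0, 1, 2 and 3 were shared by 5 other genes, those of Tfrc by 55 and those of Ccl3 by 61, among them Ccl4 through the same regions.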
